A study of Homo sapiens with 18 samples.

Results

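SW48 is an established human colorectal adenocarcinoma line, and its RNA was hybridised once in a panel of 18 lines with 1 array per line. The labels call all of them colorectal cancer (CRC) lines, although HUTU80 is known as a line of the duodenum. The SW48 array was set against the arrays of the other 17 lines. The series asks how far cell lines and other models match the expression subtypes of colorectal cancer. Total RNA came from cultures, and the labels give no treatment, genotype or passage for any line. SW48 grew in DMEM/F-12 with 9 of the others, CAR1, CL40, HT55, HUTU80, LS180, OUMS23, RKO, SW1463 and SW948. The remaining 8, COLO320HSR, HCT116, KM12, LS513, MDST8, NCIH716, RCM1 and SNUC1, grew in RPMI 1640 with added glucose and pyruvate. Where a gene had several probe sets, the 1 brightest on average over the panel was used. Levels are deposited log2 intensities, so 1 unit is a 2-fold difference in intensity.

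Of 19774 genes measured, 14067 lay above a background level of 4.23 in at least 1 line. That level is the 95th percentile of probe sets of genes that belong to other tissues. A gene was called highest in SW48 when the SW48 value exceeded background and every other line by at least 1 log2 unit. It was called lowest when SW48 lay at least 1 log2 unit under every other line and those lines were all above background. With 1 array of SW48 there is no replicate error and no test, since an exact permutation test over 18 lines cannot give a one-sided p below 0.0556. The spread used in its place is that of the other 17 lines, which differ from each other in origin and medium.

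SW48 cells are known for an activating mutation of beta-catenin, the transcriptional arm of WNT signalling, where most colorectal cancers instead lose APC. WNT signals drive AXIN2 and other feedback inhibitors and sustain the crypt progenitor state, while BMP signals act through SMAD proteins and ID genes on cells leaving the crypt. BAMBI is a membrane pseudoreceptor that dampens TGF-beta and BMP receptors and is itself a WNT target. GPR15 is a chemoattractant receptor that guides T cells to the large intestine. GNAT3 is gustducin, the G protein alpha subunit of taste and tuft cells. CD36, a scavenger receptor and fatty acid transporter, is its neighbour on chromosome 7.

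The promoters below are those of genes whose SW48 level stood far from the panel. They are the 250 bases before the annotated start in RefSeq (build GRCh38.p14), with each CG dinucleotide in capitals, because CG density separates promoters of housekeeping type from those of tissue-restricted genes. The first 3 belong to genes high in SW48 and the others to genes at background there. GPR15 lies on the plus strand at chr3:98531728-98531977, GNAT3 on the minus strand at chr7:80512065-80512314, CD36 on the plus strand at chr7:80601957-80602206 (the first of 6 listed starts), NETO2 on the minus strand at chr16:47143946-47144195, and ZNF468 on the minus strand at chr19:52857620-52857869.
GPR15: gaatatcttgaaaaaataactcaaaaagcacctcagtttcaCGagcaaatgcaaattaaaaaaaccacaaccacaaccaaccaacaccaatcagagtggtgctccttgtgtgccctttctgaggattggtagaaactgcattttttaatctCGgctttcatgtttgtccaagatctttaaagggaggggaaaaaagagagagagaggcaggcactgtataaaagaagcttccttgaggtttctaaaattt
GNAT3: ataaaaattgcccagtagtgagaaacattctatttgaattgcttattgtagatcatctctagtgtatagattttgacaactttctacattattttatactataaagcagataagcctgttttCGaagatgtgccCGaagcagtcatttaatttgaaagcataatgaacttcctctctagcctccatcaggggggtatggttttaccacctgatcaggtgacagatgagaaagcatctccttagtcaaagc
CD36: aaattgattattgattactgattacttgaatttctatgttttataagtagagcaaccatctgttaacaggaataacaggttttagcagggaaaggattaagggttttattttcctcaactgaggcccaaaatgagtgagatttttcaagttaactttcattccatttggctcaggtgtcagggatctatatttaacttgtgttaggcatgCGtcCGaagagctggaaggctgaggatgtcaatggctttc
NETO2: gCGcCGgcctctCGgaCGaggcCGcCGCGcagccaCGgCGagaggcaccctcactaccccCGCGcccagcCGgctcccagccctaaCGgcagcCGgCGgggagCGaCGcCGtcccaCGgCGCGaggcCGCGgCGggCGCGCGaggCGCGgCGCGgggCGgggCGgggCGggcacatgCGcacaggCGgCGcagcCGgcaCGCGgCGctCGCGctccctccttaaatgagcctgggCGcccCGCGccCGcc
ZNF468: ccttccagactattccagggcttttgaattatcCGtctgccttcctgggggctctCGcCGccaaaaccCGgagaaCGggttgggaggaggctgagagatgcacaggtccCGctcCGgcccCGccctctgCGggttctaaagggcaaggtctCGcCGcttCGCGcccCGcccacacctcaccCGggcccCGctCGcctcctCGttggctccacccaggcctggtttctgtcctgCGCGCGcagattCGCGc

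These windows held 2 CG dinucleotides for GPR15, 2 for GNAT3 and 2 for CD36, against 47 for NETO2, 23 for ZNF468 and 18 for TAF9B, another gene at background in SW48. The contrast was not general. The median was 20 CG in the 36 genes called highest that had a promoter in the table, 20 in the 7 called lowest, and 20 in all 11355 genes above background with a promoter. Promoters with at most 5 CG made up 30.6% of the genes called highest (11 of 36) and 12.6% of all genes above background. These shares are not matched, because the highest call favours genes that are low in the other lines. Only 7 of the 47 genes called highest were above background in all of those lines. Genes called lowest had to be above background in all other lines, and of the 6567 such genes with a promoter 4.42% had at most 5 CG, against 0 of the 7 called lowest. CG reads the same on both strands, and 93.9% of the 35116 starts in the table had at least 1. The match is to letters only and no methylation was measured.

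By the highest call, 47 of 14067 genes (0.334%) stood out in SW48, and 11 (0.0782%) stood out as lowest. The lowest call was open only to the 7694 genes above background in all other lines, of which 11 are 0.143%. The other lines had 13 to 301 genes called highest (median 62) and 7 to 126 called lowest (median 26), so SW48 ranked 12th for the first count and 16th for the second. Without CL40 the count of lowest genes became 19. Against only the 9 other lines grown in DMEM/F-12 the counts were 122 and 35. Fewer lines can only widen a gap, so these counts say nothing of stability. A looser measure, at least 1 log2 unit from the median of the other 17 lines, placed 1113 genes (7.91%) above and 787 (5.59%) below.

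**Figure D1:**
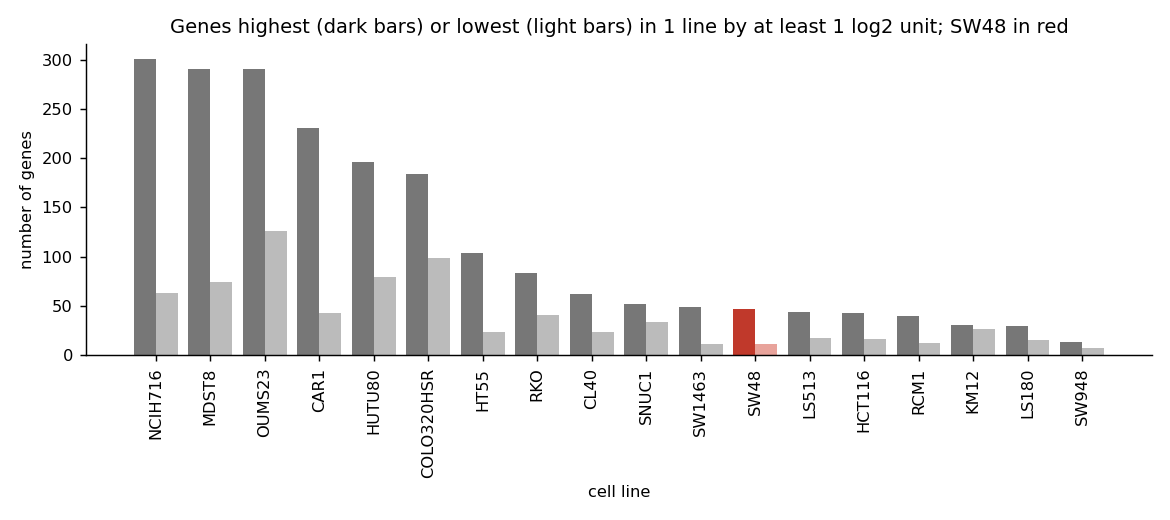
Number of genes (y axis) called highest (dark bars) or lowest (light bars) in each of the 18 lines (x axis), with SW48 in red and 1 array per line. SW48, with 47 and 11 genes, lies among the lines with few such genes, while NCIH716 reached 301 highest and OUMS23 reached 126 lowest.

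GPR15 gave the clearest separation. Its level was 10.80 in SW48, against a lowest of 2.97 in CAR1, a median of 3.35 and a highest of 4.88 in HUTU80 among the other lines. All other lines but HUTU80 were under background, and the gap of 5.91 to HUTU80 corresponds to 60.3-fold in intensity. SW48 lay 18.2 SDs of the other 17 lines above their mean, but that SD comes almost wholly from values under background. Because the other lines' median was under background, the difference from it is a bound, at least 94.6-fold.

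GNAT3 was at 11.11 in SW48, with a lowest of 3.15 in LS180, a median of 3.39 and a highest of 7.39 in NCIH716. COLO320HSR, at 4.24, sat at background, and the remaining 15 lines were under it. The gap to NCIH716 was 3.72 and became 6.87 without that line. CD36 was at 12.09 in SW48 and also high in COLO320HSR (10.46) and NCIH716 (9.40), while the median of the other lines was 3.21 and the lowest, OUMS23, was 2.78. The gap to COLO320HSR was 1.63 and became 2.69 without it. All 4 CD36 probe sets above background were highest in SW48. The lines next in order after SW48 for GNAT3, NCIH716 and COLO320HSR, were also the next for CD36.

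BAMBI was at 12.66 in SW48, above every other line, from 3.22 in SW1463 through a median of 8.93 to 11.75 in OUMS23 and 11.41 in HT55. Its gap of 0.90 fell under the threshold, so it was not called, and without OUMS23 the gap was 1.24. SW48 lay 1.79 SDs above the mean of the other lines, and 16 of 17 had BAMBI above background. BAMBI therefore marked SW48 by rank and not by a separation from the panel, unlike GPR15 and GNAT3.

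**Figure D2:**
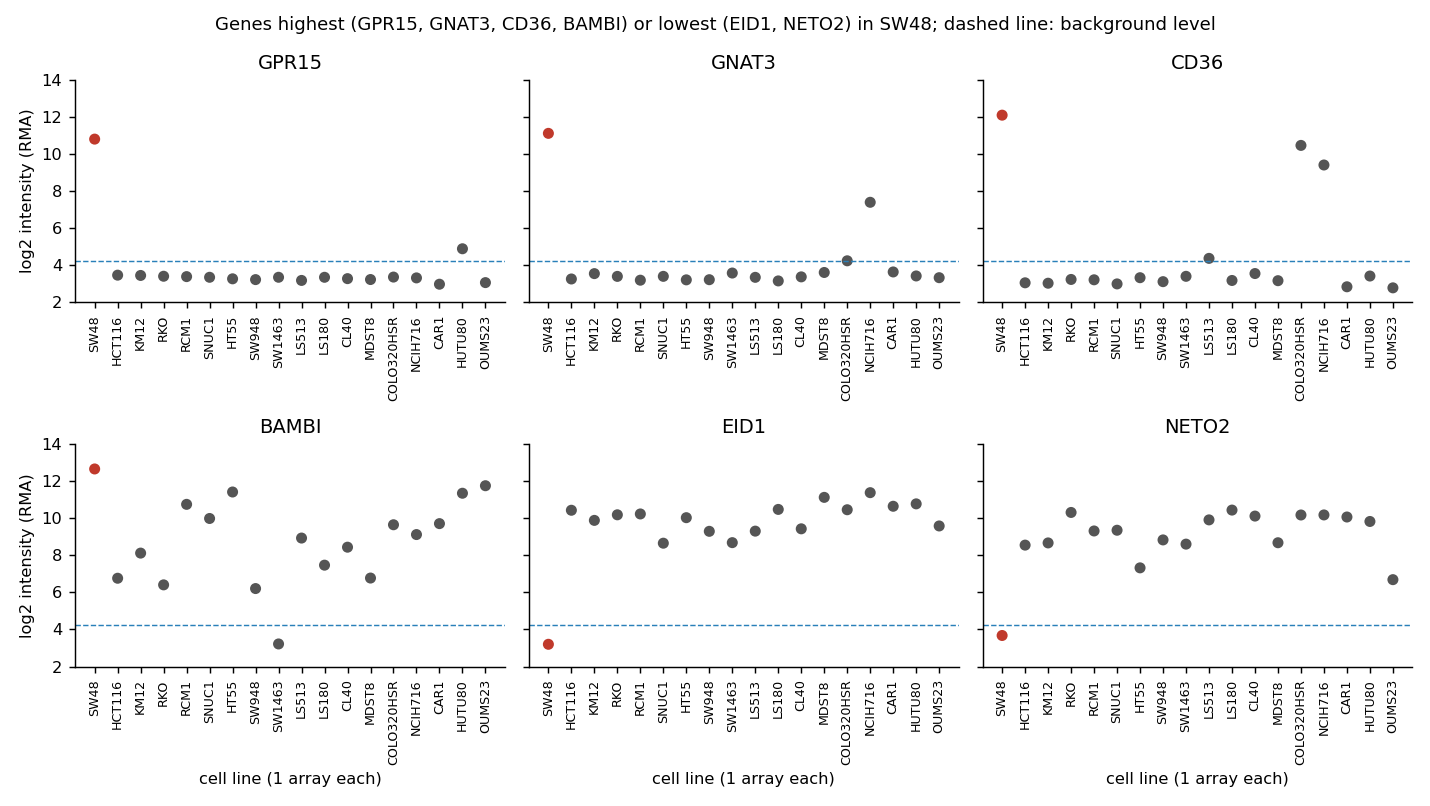
Log2 intensity (y axis) of 6 genes in each of the 18 lines (x axis, 1 array each), with SW48 in red and the background level dashed. GPR15 is far above all other lines in SW48, GNAT3 is also above background in NCIH716 at a lower level, CD36 is high in COLO320HSR and NCIH716 too, BAMBI lies at the top of a wide range, and EID1 and NETO2 are under background in SW48 and above it in all other lines.

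Secreted proteins and proteases formed the next group. CRISPLD2, a secreted cysteine-rich protein, was at 9.73 in SW48 and at 3.23 to 6.07 elsewhere (median 3.90, highest in OUMS23). KLK7, a chymotrypsin-like kallikrein of shedding epidermis, was at 11.70 against 3.14 to 8.45 (median 4.23, highest in LS180), and both of its probe sets were highest in SW48. TLL2, a tolloid-like metalloprotease, was at 6.70 against 3.17 to 4.40 (median 3.58). With the mean of all its probe sets the TLL2 gap was 0.79, under the threshold. NDP, the Norrie disease protein that activates the Frizzled-4 receptor, was at 7.98 against 2.87 to 6.23 (median 3.33, highest in CL40), and its gap of 1.75 became 3.22 without CL40.

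Receptors and signalling proteins were also among the genes called highest. GPER1, a G protein-coupled oestrogen receptor, was at 7.24 against 3.27 to 4.69 (median 3.47), on both probe sets. GPR137C, an orphan membrane protein, was at 6.51 against 2.92 to 4.48 (median 3.31). RTN4R, the Nogo receptor of neurons, was at 7.49 against 3.44 to 5.79 (median 4.39). TFR2, a transferrin receptor of liver iron sensing, was at 7.49 against 2.71 to 6.08 (median 3.41), and its gap of 1.41 was 0.60 with the mean of all its probe sets, which ends the call. GNAZ, another G protein alpha subunit, was at 6.80 against 3.53 to 5.58 (median 4.41). No range of the other lines reached the SW48 level for any of these genes, by the definition of the call. NEK7, a kinase required by the NLRP3 inflammasome, was at 11.68 against 8.49 to 10.28 (median 9.48), so it was well above background in every line.

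Neuronal and calcium-binding genes included RIMS2, a scaffold of the presynaptic active zone, at 7.50 against 3.25 to 4.43 (median 3.77). S100A5, a calcium-binding protein, was at 7.32 against 3.03 to 4.27 (median 3.42). KLHDC8A, a kelch-repeat protein, was at 8.27 against 3.24 to 5.24 (median 3.54). BEGAIN, a postsynaptic density partner, was at 6.18 against 3.18 to 4.37, and NDRG4 was at 7.33 against 3.25 to 5.54 (median 3.63). NDRG4 is a tumour suppressor candidate whose promoter methylation serves in stool tests for colorectal cancer. RIMS2, S100A5 and KLHDC8A were above background in 1 other line each.

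Transcription factors and other nuclear genes were called as well. BHLHA15, the bHLH factor of secretory cells, was at 8.07 against 3.44 to 6.24 (median 4.29, highest in SW948). RUNX2, the osteoblast factor, was at 10.70 against 3.47 to 9.33 (median 6.31, highest in RCM1), and 13 of 17 other lines had it above background. PRDM16, a zinc finger regulator of brown fat, was at 6.13 against 2.79 to 4.16 elsewhere, all under background, and its gap was 0.91 with the mean of all probe sets. CEP152, which starts centriole duplication, was at 10.02 against 6.59 to 8.20 (median 7.53), with all 4 bright probe sets highest in SW48. Its gap of 1.82 was 0.95 with the mean of all probe sets and 0.98 with the probe set of largest SD, so the call rests on the probe set chosen. SYCE2, of the meiotic synaptonemal complex, was at 6.14 against 2.99 to 4.42.

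Metabolic and secretory pathway genes were in the set too, though not all 47 genes are described here. KDELR3, which returns escaped chaperones from the Golgi to the endoplasmic reticulum, was at 11.46 against 4.32 to 9.36 (median 8.43), on all 3 probe sets. HPGD, the enzyme that inactivates prostaglandin E2, was at 11.30 against 3.55 to 10.26 (median 7.47), on all 4 probe sets. PTGER2, a receptor for the same prostaglandin, was not called but was also highest in SW48, at 8.72 against 2.98 to 8.03 (median 3.39), the 8.03 being NCIH716 and the next line CAR1 at 4.54. ADSS1, the muscle form of adenylosuccinate synthase, was at 7.60 against 3.01 to 6.08, with a gap of 1.52. That gap was 2.41 without OUMS23 but 0.88, under the threshold, with the mean of all its probe sets. HPGD was above background in 12 of the other 17 lines and PTGER2 in 2.

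Long non-coding RNAs were called too. LINC03014 was at 6.31 against 2.85 to 3.49, with no other line above background. DGCR5 was at 5.82 against 3.24 to 4.01 on both probe sets, again with no other line above background. PRKAG2-AS1, antisense to a subunit of AMP-activated kinase, was at 7.72 against 2.93 to 6.25 on both probe sets, with a gap of 1.47. That gap was 2.25 without RKO but 0.94, under the threshold, with the probe set of largest SD. MIR31HG, the host transcript of miR-31, was at 9.23 against 3.38 to 8.20 (median 3.82), with MDST8 the only other line above 5.24.

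In all, 12 of the 47 genes had a gap of at least 2 and 7 had a gap of at least 3. For 5 genes no other line was above background, and for 7 all 17 other lines were. Of 22 genes with several probe sets above background, 17 had every one highest in SW48. Just inside the threshold were STOX1 at a gap of 1.03 and MIR31HG at 1.03, and just outside were ADIRF-AS1 at 0.99, F12 at 0.98 and ZNF74 at 0.98.

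**Figure D3:**
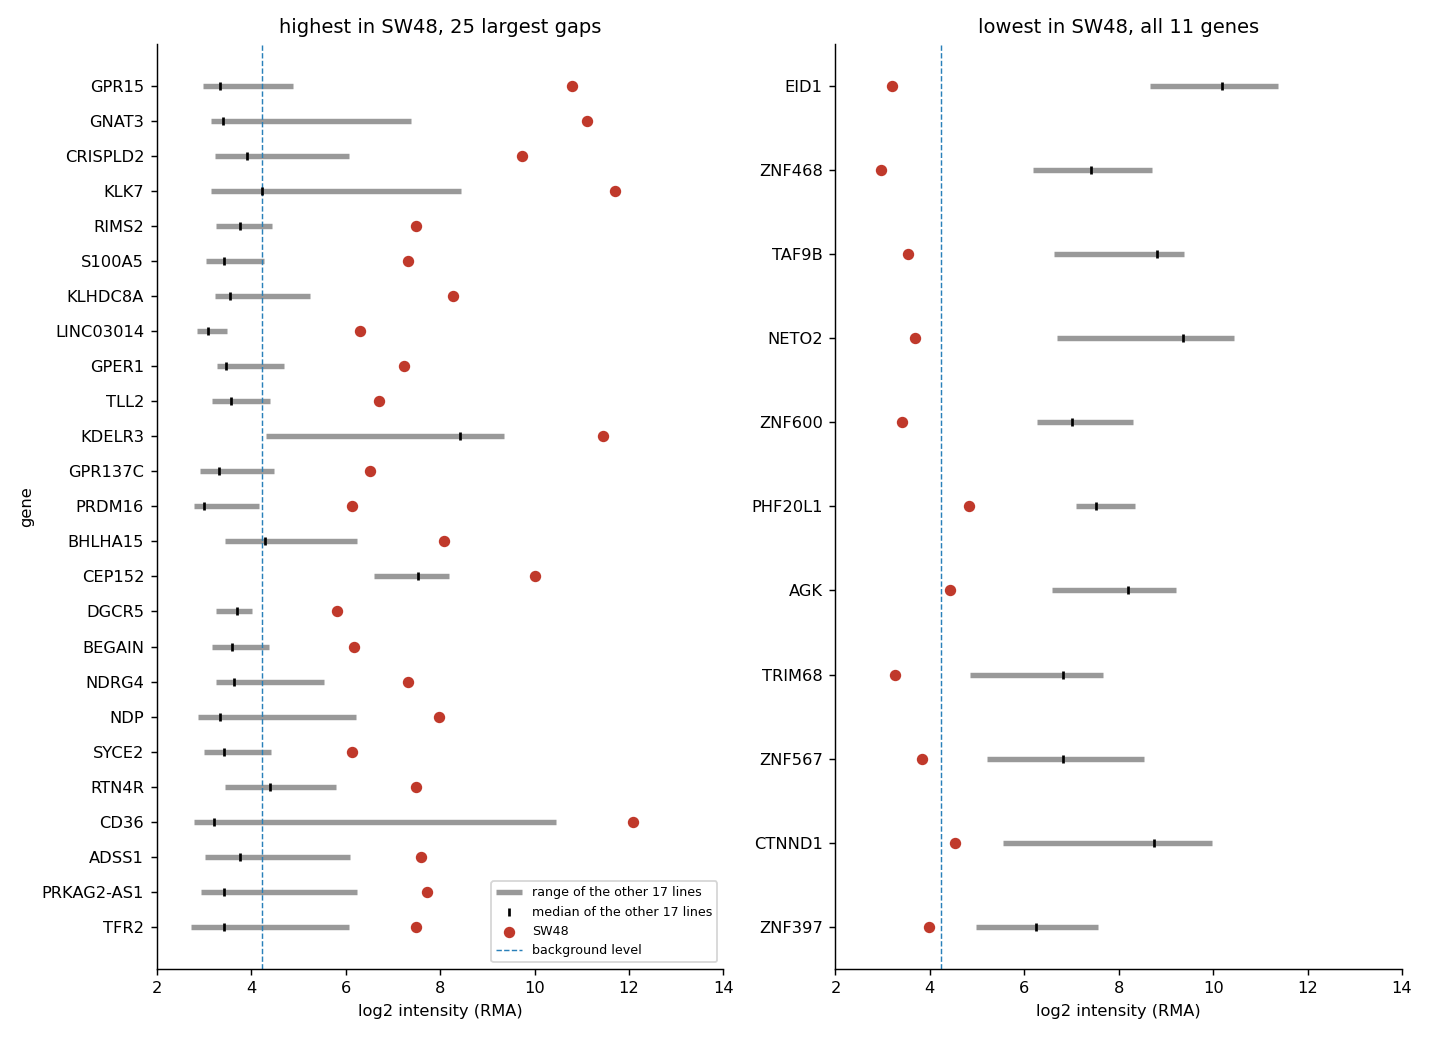
SW48 level (red points) against the range (grey bars) and median (black ticks) of the other 17 lines, on the log2 intensity axis with the background level dashed, for the 25 genes with the largest gaps above and all 11 genes called lowest. GPR15 lies farthest from its nearest line among the high genes and EID1 among the low genes.

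The genes called lowest were led by EID1, an inhibitor of differentiation that binds the retinoblastoma protein and the EP300 acetyltransferase. EID1 was at 3.20 in SW48, under background, and at 8.65 (SNUC1) to 11.38 (NCIH716) in the other lines, with a median of 10.18. All 3 probe sets were lowest in SW48, and the distance to SNUC1 was at least 21.4-fold. SW48 lay 8.68 SDs of the other lines below their mean. The RefSeq promoter table used here did not list EID1, so no sequence is given for it.

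TAF9B, a subunit of the general transcription factor TFIID, was at 3.55 against 6.62 to 9.39 (median 8.82), and 4 of 5 bright probe sets were lowest in SW48. NETO2, an auxiliary subunit of kainate receptors, was at 3.67 against 6.69 to 10.44 (median 9.35), on both probe sets. AGK, a mitochondrial lipid kinase and import factor, was at 4.43 against 6.58 to 9.21 (median 8.20), also on both. These genes were above background in all 17 other lines by the definition of the call. Under background in SW48 were 8 of the 11 genes, so for them only the distance counted from the background level is a lower bound. That bound to the nearest line was 0.62 log2 units for TRIM68, 0.75 for ZNF397 and 0.97 for ZNF567. Each is under the 1 log2 unit of the call.

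CTNND1, the p120 catenin that keeps E-cadherin at the junction, was at 4.53 in SW48 and at 5.55 (NCIH716) to 9.97 (SW948) elsewhere, with a median of 8.76. CTNND1 passed only just, 1.02 under NCIH716, with 3 of 4 bright probe sets lowest in SW48, and with the mean of all probe sets the distance of 0.36 ended the call. CDH1, the E-cadherin gene, was at 10.53 (3.16 to 11.58 elsewhere, median 10.77), which is inside the range of the panel. PHF20L1, a reader of methylated lysine, was at 4.82 against 7.10 to 8.34, but only 3 of its 6 bright probe sets were lowest, and with the mean of all of them the gap of 2.28 below the next line shrank to 0.76. TRIM68, a ubiquitin ligase, was at 3.26 against 4.86 to 7.66.

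Genes with a ZNF symbol made up 4 of the 11 (36.4%), against 165 (2.14%) of the 7694 that could be called lowest, a class chosen after the values were seen. They were ZNF468 (2.96 against 6.19 to 8.70), ZNF600 (3.42 against 6.26 to 8.30), ZNF567 (3.82 against 5.20 to 8.53) and ZNF397 (3.98 against 4.98 to 7.56). With the mean of all probe sets ZNF567 lay only 0.73 and ZNF397 0.32 under the next line, and neither was then called. ZNF468 and ZNF600 lie in the same cluster of near-identical paralogs on chromosome 19, where probe sets can cross-hybridise, so their values are uncertain. EPM2AIP1, which binds the glycogen phosphatase laforin, was at 3.13 in SW48 and 2.76 in RKO, against a median of 8.36 and a highest of 9.05 in the other lines. It could not be called lowest, because RKO was lower still and also under background.

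Position on the chromosome was shared by some of these genes, a feature the calls did not use. GNAT3 and CD36 are adjacent in the RefSeq order, and GNAI1, on the other side of GNAT3, was at 9.59 and ranked 3rd of 18 (3.43 to 10.37 elsewhere, median 6.84). SEMA3C, beyond CD36, was at 6.66, below its median of 8.44. GPR15 sits between CLDND1 (9.90, ranked 2nd, median 8.71) and CPOX, a haem synthesis enzyme (12.16, ranked 1st, 7.48 to 11.55 elsewhere). Each neighbour of GNAT3 and GPR15 was thus at least 1 log2 unit above its median.

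KLK7 lies in the kallikrein cluster of chromosome 19. KLK6 was at 9.63 (median of the other lines 6.72), KLK8 at 5.02 (3.64), KLK10 at 10.29 (7.27) and KLK11 at 7.74 (3.78), each at least 1 log2 unit above the median, whereas KLK5 at 3.86 was not. Of 11 kallikreins above background in some line, 5 were at least 1 log2 unit above and 0 below, a list drawn up after the values were seen. KLK7 was the only kallikrein called highest in SW48. RCM1 exceeded SW48 for KLK6 (11.81) and KLK10 (11.40), LS180 for KLK8 (9.99) and HT55 for KLK11 (9.02).

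CEP152 and EID1 are separated on chromosome 15 by SHC4, at 3.10 and above background in NCIH716 alone, so a gene called highest and one called lowest lie close together. ZNF83, at 3.10 against a median of 6.46, belongs to the same cluster as ZNF468 and ZNF600. TCP11L1 (7.38 against 4.47 to 6.08) was called highest while the adjacent DEPDC7 was at 3.11, under background and at least 3.14 below the median of 7.38 in the other lines. On the other side of TCP11L1, LINC00294 was at 8.08, 1.61 above its median. Among the 47 genes called highest, 14 (29.8%) had an adjacent measured gene at least 1 log2 unit above its median, against 10.7% of all 19732 genes placed. For the 11 called lowest, 1 (9.09%) had an adjacent gene at least 1 log2 unit below, against 7.73%. The shares over all placed genes include genes under background in every line, so they are not matched to the called sets. GNAT3 and CD36 each counted as the other's neighbour.

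**Figure D4:**
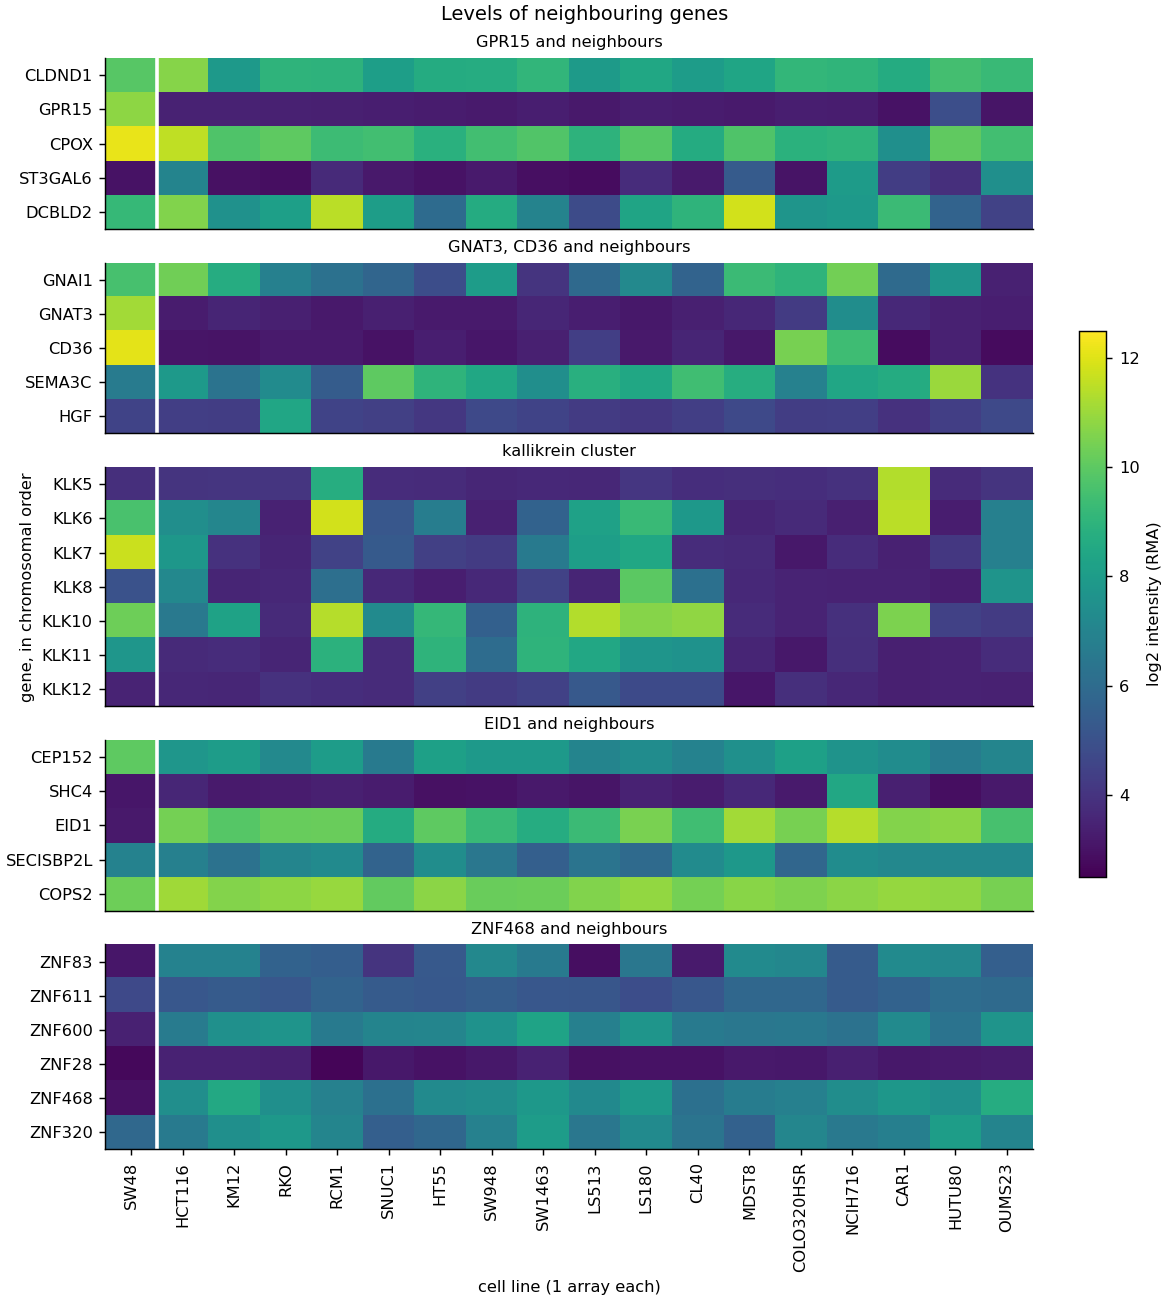
Log2 intensity (colour scale) of genes in chromosomal order (rows) in the 18 lines (columns, SW48 first and set off by a white line) around GPR15, GNAT3 and CD36, the kallikreins, EID1 and ZNF468. SW48 is brightest for GPR15, CPOX, GNAT3, CD36, KLK7 and CEP152 and darkest for EID1 and ZNF468.

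Lists of genes by pathway were read as counts of members at least 1 log2 unit above or below the median of the other lines, beside 7.91% above and 5.59% below over all genes, whose median deviation was 0.05. In the list of WNT feedback and target genes, 12 of 34 were above and 5 below (35.3% and 14.7%), with a median deviation of 0.14. That median ranked only 6th of the 18 lines, whose others spanned -0.95 to 0.98. AXIN2, a scaffold of the beta-catenin destruction complex, was at 11.44, level with HT55 at 11.44 (3.92 to 11.44 elsewhere, median 9.33). NOTUM, a WNT deacylase, was at 8.07 (median 4.75), NKD2 at 8.19 (6.47), RNF43 at 8.90 (7.28), and ZNRF3 at 10.13, above every other line (5.03 to 9.71). The last pair are ligases that remove Frizzled receptors. LEF1, a partner of beta-catenin, went the other way at 3.17, under background, against a median of 6.46, and LGR5, the stem cell receptor, was at 6.74 (2.63 to 9.90, median 4.47). Among WNT ligands and Frizzled receptors 8 of 25 were above and 1 below, with FZD7 at 9.37 (median 7.37). The median deviation of that list, 0.28, was the highest of the 18 lines, whose others spanned -0.16 to 0.26. It was 0.18 with array medians set equal and 0.18 against lines of the same medium only. The rank was not computed under those settings.

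BAMBI belonged to a list of BMP pathway, BAMBI and ID genes, of which 11 of 31 were above (35.5%) and 1 below, although the median deviation was 0.10, ranked 9th of 18, and was -0.01 against lines of the same medium only. BMP4, a ligand, was at 12.35 and above every other line (3.95 to 11.91, median 9.90). BMPR2, a receptor, was at 9.27 and also ranked 1st (5.35 to 9.03, median 7.78). ID2, a BMP target, was at 11.99, ranked 1st (5.63 to 11.38, median 9.92), and ID3 was at 10.85 (median 9.30). MSX2, a homeobox target, was at 10.71 against 10.72 in SNUC1 (median 6.59). ID1, at 11.26, stayed near its median of 11.07, and BMP2 was under background at 3.48.

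Among TGF-beta and activin ligands, receptors and SMADs 8 of 29 were above and 3 below. SMAD7, the inhibitory SMAD, was at 9.44, ranked 1st (3.32 to 8.86, median 5.99). LTBP3, which holds latent TGF-beta in the matrix, was at 9.81 and ranked 1st (3.87 to 9.13, median 5.95), and TGFB2 was at 8.20 (median 3.35). The list of TGF-beta response genes was more evenly divided, 6 above and 7 below of 30. TGFBI was under background in SW48, against a median of 10.23, NEDD9 was at 2.89 (median 7.81), COL4A2 at 3.03 (6.83) and ITGB6 at 4.10 (7.86), while BHLHE40 at 7.67 was under the 8.22 of the next line. Several of these were also under background in HCT116, where TGFBI was at 3.28, NEDD9 at 2.91, COL4A2 at 2.95 and ITGB6 at 3.10.

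MAPK feedback and output genes were split, 5 of 31 above and 5 below. DUSP4, a phosphatase of ERK, was at 11.22, above KM12 at 11.18 (median 8.54), and EGR3 was at 8.97 (median 5.87). On the other DUSP4 probe sets SW48 was not highest, at 9.83 against up to 10.37 and at 9.60 against up to 9.84. DUSP5 at 5.53 (median 7.51) and DUSP10 at 3.94 (median 5.90) were lower. In the EGFR family and ligand list 3 of 14 were above and 2 below, with EGFR at 8.52 (median 7.87) and the ligand EREG at 9.63 (median 8.29). The gaps to the nearest line for DUSP4 and for EGR1, at 11.57 against 11.54 in LS513, were within 0.04 log2 units.

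Taste and tuft cell genes were examined because of GNAT3. Only 13 of 30 measured members were above background in any line, 3 were above the median by at least 1 and 0 below, and apart from GNAT3 these were KCTD12 at 7.94 (2.79 to 9.47, median 3.87) and PLCG2 at 5.71 (median 4.43). TRPM5, the taste transduction channel, was under background at 3.05, as were POU2F3, the tuft cell factor, at 3.36 and GNG13 at 3.16. PLCB2, the phospholipase of that cascade, was at 4.88 (3.76 to 4.90, median 4.16). The list for trimeric G protein subunits had 8 of 35 above and 2 below. In it GNB5 was at 8.25, above every other line (4.56 to 7.85), and GNAI2 at 8.58 (median 7.08).

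Among gut and leukocyte G protein-coupled receptors 6 of 50 were above and 2 below, near the background shares. Besides GPR15 they included PTGER2 and NTSR1, the neurotensin receptor, at 6.91 (3.62 to 6.39, median 3.95). The list did not hold GPER1 or GPR183, G protein-coupled receptors that were also called highest in SW48. PTPRC, the leukocyte phosphatase CD45, was at 6.68 in SW48 and at 6.40 in COLO320HSR, with all other lines at or below 3.49. Only 1 of its 3 bright probe sets was highest in SW48. Of the other 5 leukocyte markers CD79A was at 4.35, just above background, and CD3E, LYZ, LAPTM5 and TYROBP were under it. The summed level of all 6 was 24.2 in SW48 and 20.4 to 29.7 in the other lines. LYZ alone ranged from 2.85 to 11.51 in the other lines, so this sum of log2 values says little of leukocyte RNA. In a longer list of leukocyte markers, 1 of 18 was at least 1 log2 unit above its median and 1 below. The median deviation of that list was -0.24, the lowest of the 18 lines, and -0.09 with the mean of all probe sets. Endothelial markers (0 of 3) and fibroblast markers (0 of 5) were all under background. Their part in the GPR15 level was not tested.

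Of the 7 markers of colorectal epithelium used, 5 were above background in SW48. EPCAM (11.78), CDH1 (10.53), KRT8 (10.77), KRT18 (11.87) and the intestinal factor CDX2 (7.68) were above background, whereas VIL1, the brush border protein villin, at 3.09 and LGALS4, galectin-4, at 3.39 were not. VIL1 ranged from 3.07 to 11.72 elsewhere (median 8.18) and LGALS4 from 3.20 to 12.52 (median 10.39). Of 42 enterocyte genes 12 were at least 1 below the median (28.6%) and 1 above. GATA6 was at 3.19 (median 7.99), CEACAM6 at 3.52 (7.22), CDX1 at 4.42 (7.15) and KRT20 at 3.16 (4.66). Of 39 goblet cell genes 8 were below and 0 above, with AGR2 at 3.57 (median 9.46), TFF3 at 3.91 (9.80) and MUC13 at 3.25 (8.80). None of these could be called lowest, since at least 1 other line was under background as well, such as HCT116 for VIL1 and CAR1 for LGALS4.

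In the epithelial junction list 9 of 42 were below (21.4%) and 1 above. CDH17, the liver-intestine cadherin, was at 3.78 (median 10.08), CLDN4 at 4.11 (9.61), CLDN3 at 6.26 (8.87) and the epithelial factor ELF3 at 4.94 (9.02). Mesenchymal genes were mixed, 6 of 40 above and 2 below. COL6A1 was at 9.12 (median 4.91), CAV1 at 10.67 (6.56) and CALD1 at 8.23 (3.03), while VIM at 3.33 and ZEB1 at 3.43 were under background.

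**Figure D5:**
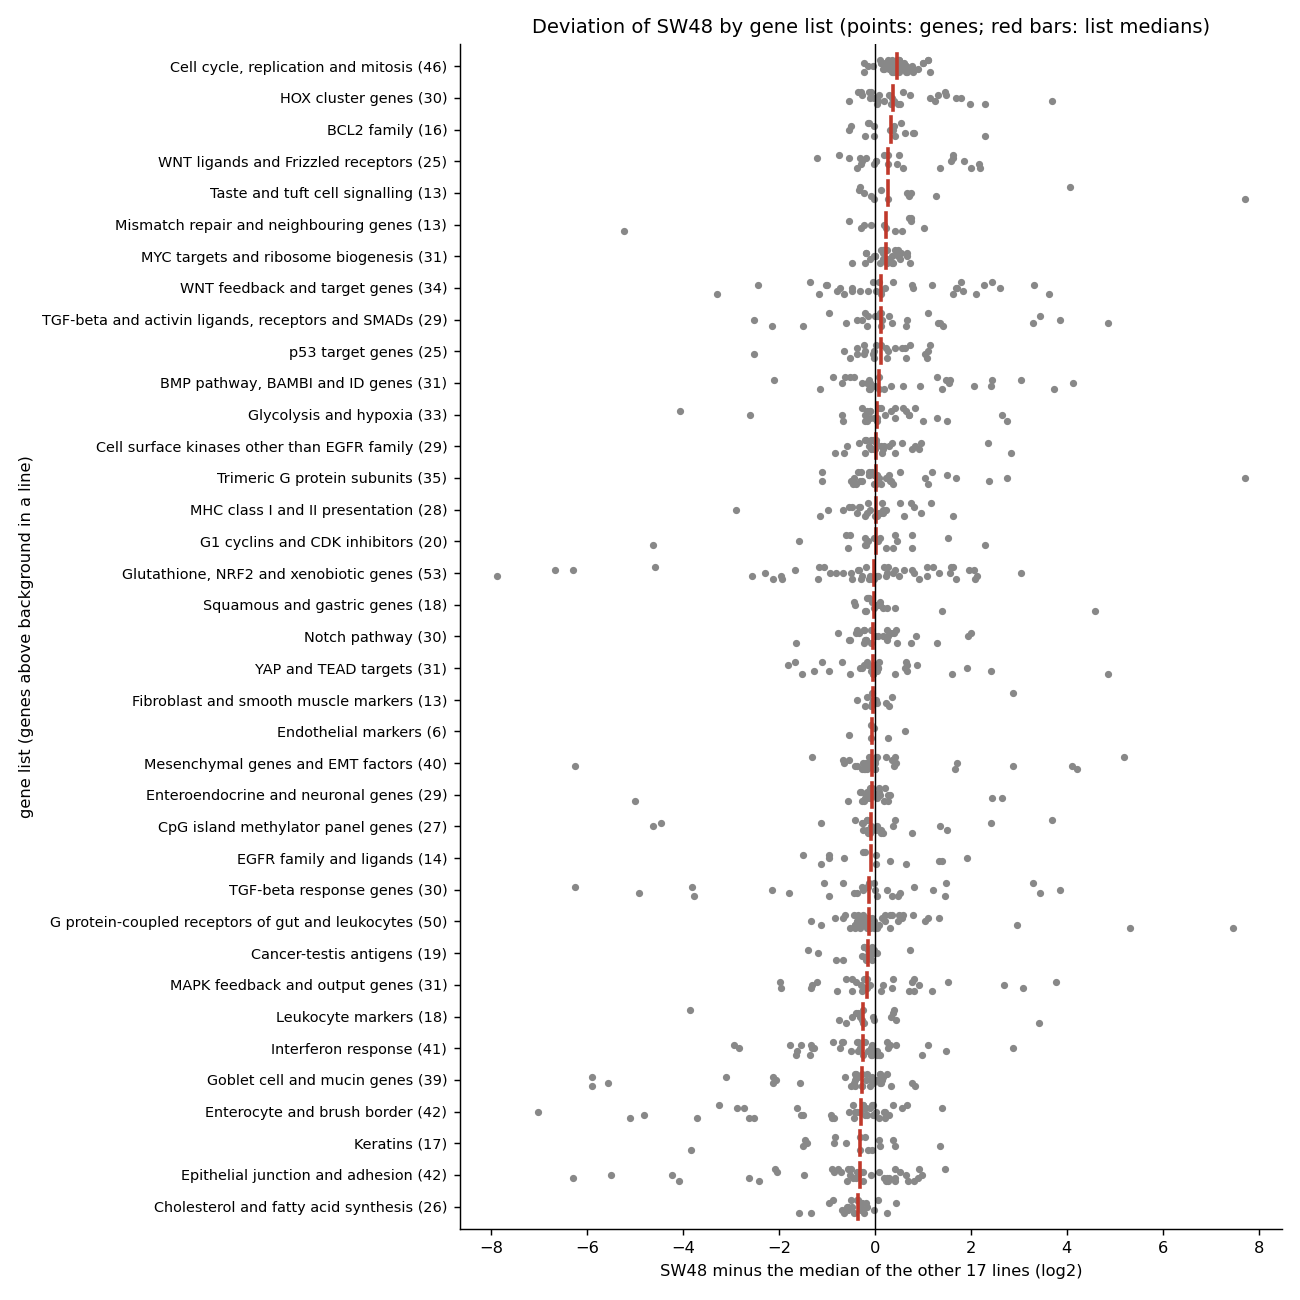
SW48 minus the median of the other 17 lines (x axis, log2) for the genes (grey points) of each list (y axis, number of genes above background in brackets), with list medians as red bars. List medians lie between -0.36 and 0.47, and single genes reach far beyond them in both directions.

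Cell cycle, replication and mitosis genes were shifted a little as a group. Of 46 genes 42 lay above the median of the other lines and the median deviation was 0.47, second of the 18 lines, with 5 at least 1 log2 unit above and 0 below. CDC45, a subunit of the replicative helicase, was at 9.68 (7.47 to 9.41), BIRC5, survivin, at 10.19 on all 3 probe sets (8.62 to 10.13), and TK1 at 11.09 (median 9.97). MKI67, at 9.93, was close to its median of 9.57. Growth rate was not recorded in the labels, and the labels give no hybridisation batch.

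The G1 phase and methylator panel lists did not lean one way, but single members were low. CDKN2A, the p16 and p14ARF locus, was at 3.97, under background, with 5 other lines also under it and a median of 8.59. MGMT, which repairs alkylated guanine, was at 2.88, under background, against 3.49 to 8.77 elsewhere (median 7.33), and 14 of the other lines were above background. NDRG4, described above, and IGFBP3, at 6.39 (median 3.98), are members on the high side. CDK6 was at 7.67, level with CL40 (median 9.26). CHFR, a mitotic checkpoint ligase, was at 3.61 (median 4.72). The methylator panel list as a whole had 4 of 27 above and 3 below and a median deviation of -0.08.

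Over 4899 genes with a range of at least 3 log2 units, the profile of SW48 correlated most with HCT116 (Pearson r = 0.75), then with KM12 and RCM1 (0.72 each) and RKO (0.71), and least with MDST8 (0.49). These values describe the arrays, which share probes and normalization, and genes are not replicates. HCT116 was also the nearest other line for 7 of the 47 genes called highest, more often than any other line. HCT116 grew in RPMI 1640 and RKO in DMEM/F-12.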

How the data were processed

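Each of the 18 lines was hybridised once to an Affymetrix array, and the labels do not say from how many cultures the RNA came. The deposited table gives log2 intensities after RMA, which the submitters' processing notes name together with affy. Their versions, and any scan batch, are unknown from the sources used here. The table holds 54613 probe sets from 2.31 to 13.71. Of these 40914 name 1 gene in GEO's platform annotation, 864 several and 12835 none, and only the first were used. 40858 of them matched a RefSeq symbol. Array medians ran from 3.65 to 3.69, with SW48 lowest at 3.65, and SW48 had 10441 genes above background against 10182 to 10762 elsewhere. The number of arrays limits the precision.

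The probe set with the highest mean stood for each gene. The 2 brightest probe sets of 8843 genes differed in their SW48 deviation by a median of 0.24 and by up to 1.26 in 95% of genes. Background is the 95th percentile over 99 probe sets of 59 genes of other tissues. That list was not checked gene by gene, and 1 probe set reached 9.60. Genes named are BAMBI, GPR15, GNAT3 and EPM2AIP1, the 25 genes highest and up to 15 lowest by gap, list members called highest or lowest or deviating most, and signalling, mismatch repair, methylator panel and G1 members as background. Neighbouring genes and some list members outside that rule were chosen after their values were seen. The members and lists were chosen with earlier results of these data known, and the kallikrein and neighbourhood lists after their values were seen. Calls were computed with Python 3.11.15, pandas 2.3.3 and numpy 2.4.6, and tested on simulated data. Alternatives were other probe set rules, background levels, scalings, thresholds, the medium and leaving out each line.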

Additional observations from a re-analysis of the deposited data

How the results depend on the processing

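No gap of a named gene changed sign, though leaving out lines could not change it. Of 36 called genes followed singly (25 highest by gap, 11 lowest), 10 lost the call under another probe set rule or quantile normalization. These were 6 highest (TLL2, PRDM16, CEP152, ADSS1, TFR2 and PRKAG2-AS1) and 4 lowest (PHF20L1, ZNF567, CTNND1 and ZNF397, whose gap was also -0.90 after quantile normalization). That count looks at gaps alone and not at the background condition. With a background level of 6, DGCR5 (5.82 in SW48) and TRIM68 (4.86 in the lowest other line) lost the call too. TRIM68 also lost it with a background level of 5. Of all 47 highest, 35 kept the call with the mean of all probe sets and 45 with the probe set of largest SD. With equal array medians 43 kept it, after quantile normalization 44, and 40 with a background level of 6. Of the 11 lowest, 7 kept it with the mean of all probe sets and 7 with a background level of 6. Of 37 list medians, 12 changed sign under some setting, each with a reported size of at most 0.15, and MAPK genes went from -0.15 to 0.16 against lines of the same medium and trimeric G proteins from 0.03 to -0.09 with array medians set equal. The count of genes called highest was 152 with a gap of 0.5, 12 with a gap of 2, 7 with a gap of 3 and 122 against lines of the same medium. The count called lowest was 36, 7, 4 and 35 under those settings, and 7 with a background level of 6. With a deviation of 2 log2 units 315 genes were above and 295 below the median of the other lines. Leaving out each other line in turn gave 47 to 57 genes highest, 11 to 19 lowest (19 without CL40), 1083 to 1165 above and 742 to 838 below. Fewer lines can only keep or widen a gap, so the counts of highest and lowest genes could not fall and say nothing of stability. A background level of 5 was added after seeing the data and left all 4 counts within 1.5 times. Of the gaps of named genes, 623 of the leave-one-out values stayed within the spread and 6 moved, and under the other settings 169 stayed and 16 moved. A leave-one-out gap changes only when the nearest line is left out, so most of those 623 could not move. Of list medians, 714 and 204 stayed, and 6 moved under the other settings. The cause was not tested. No paired analysis was possible because each line was measured once and the lines are different, so the number 1 that every array carries pairs nothing. Signal over background limits the low calls, since 8 of 11 lie under it in SW48.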

Other observations

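Of 30 HOX genes above background in some line, 10 were at least 1 log2 unit above the median of the other lines and 0 below, with a median deviation of 0.38 against 0.05 over all genes. Of 9 HOXB genes, a subset chosen after the values were seen, 7 were above and 0 below. HOXB7 was at 9.65 (6.12 to 9.06 elsewhere), HOXB8 at 9.53 (3.81 to 8.59) and HOXB9 at 8.86 (3.29 to 8.37), each above every other line on all of its bright probe sets. HOXB2 was at 8.94 against a median of 5.25. MYC targets and ribosome biogenesis genes had a median deviation of 0.23, with 25 of 31 above 0 but none past 1 log2 unit, such as NOP56 at 11.63 (median 10.95). Cholesterol and fatty acid synthesis genes were lower by a little, with a median deviation of -0.36 and HMGCS1 at 7.85 (median 9.18). Interferon response genes had 10 of 41 below and 3 above, with OAS1 at 4.81 (median 7.74) and IFITM1 at 6.10 (8.93), while CMPK2 was at 7.54 (4.67). B2M, the light chain of MHC class I, was at 11.64, under every other line (12.05 to 13.21), while HLA-B was at 11.43 (median 9.81).

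Detoxification genes went both ways, 13 of 53 above and 12 below. GPX2 was at 3.32 (median 11.19), AKR1C3 at 3.38 (10.04), ALDH1A1 at 3.23 (9.52) and GSTM3 at 4.02 (8.60), all under background, whereas the efflux pump ABCG2 was at 7.81 (4.76) and the metallothionein MT1X at 11.14 (9.02). Among glycolysis and hypoxia genes the glucose transporter SLC2A1 was at 10.24 (median 7.48) and ENO2 at 7.84 (5.19), while CA12 was under background at 2.95 (3.16 to 10.56 elsewhere, median 7.01), and NDRG1 at 5.66 (8.27). The Notch ligands JAG2 at 9.20 (3.29 to 8.61) and DLL1 at 6.75 (3.24 to 6.68) were above every other line, and the target HES1 was at 9.27 (median 10.03). BCL2, the apoptosis inhibitor, was at 5.75 (3.07 to 5.45). S100A2 was at 11.41, second to RKO at 13.00 (median 6.83), and the ephrin receptor EPHA1 was at 7.73 (3.17 to 7.39). Smaller counts came from other lists, with 2 of 20 G1 cyclin and inhibitor genes above and 2 below, 4 of 25 p53 targets above and 1 below, and 1 of 13 mismatch repair and neighbouring genes above (EXO1, 8.54, median 7.51) and 1 below (EPM2AIP1). Among 13699 probe sets without a single gene name, 5001 were above background in some line, and 13 were highest and 2 lowest in SW48 by the same rule.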
